A study of Drosophila melanogaster with 5 samples.

Results

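The rhodopsin genes of *Drosophila melanogaster*, *ninaE* and *Rh2* to *Rh7*, were followed through libraries that each came from a single cell of the pars intercerebralis (PI). This neurosecretory region at the top of the fly brain relays clock time to behavior. The 7 genes were taken by name and FlyBase identifier, and not by their counts, from the 17453 genes counted in every library. All 7 identifiers were found. Reads of *ninaE*, *Rh2*, *Rh3* and *Rh4* were recorded in every cell (those of *Rh4* in cell 3 by 1 of 2 counting methods only), whereas *Rh5*, *Rh6* and *Rh7* were each at or close to 0 reads in some of them.

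The libraries came from PI cells 1 to 4, which the study kept, and from 1 further PI cell, D, which it discarded for indiscriminate read mapping. The flies carried either kurs58-GAL4 with UAS-mCD8::GFP or C767-GAL4 with UAS-nlsGFP, and in each case the Dilp2mCherry construct, whose red insulin-producing cells served as a landmark and were avoided. Neither the labels nor the methods say which driver marked which cell, and both drivers also mark cells outside the PI. The head cuticle was removed, 1 green cell was drawn into a pipette, and its RNA was amplified from oligo(dT) primers, so that reads lie mostly toward transcript 3' ends. Each cell is labelled with a different animal, but the design text counts 4 animals for 5 cells, so some may share one, and the age and sex of the flies are not given in the sources used here. No cells of another kind were sequenced for comparison, and a count per library cannot tell RNA made by the picked cell from RNA of other cells drawn in with it.

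Rhodopsins are the light receptors of the fly. Each is a G protein-coupled receptor that carries a vitamin A-derived chromophore, and light makes it activate a Gq protein and the phospholipase C encoded by *norpA*, after which the TRP and TRPL cation channels open. The genes differ in where they are used. *ninaE* encodes Rh1, the rhodopsin of the outer photoreceptors of the compound eye and among the most abundant transcripts of the fly head. *Rh3* and *Rh4* encode the ultraviolet-sensitive rhodopsins of the inner photoreceptors called R7, while *Rh5* (blue) and *Rh6* (green) are used by those called R8. *Rh2* is the rhodopsin of the ocelli, the simple eyes on the top of the head. *Rh7* has been described in clock neurons of the brain as well as in the eye.

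In the assembly dm6, 4 of the genes lie on chromosome arm 3R. *ninaE* (FBgn0002940) runs from 19886255 to 19888206 on the minus strand, *Rh2* (FBgn0003248) from 18899423 to 18901019 on the plus strand, *Rh3* (FBgn0003249) from 20081060 to 20082450 on the minus strand and *Rh6* (FBgn0019940) from 15483158 to 15484699 on the plus strand. *Rh5* (FBgn0014019) lies on the plus strand of arm 2L, from 12008153 to 12009832. On the minus strand of arm 3L are *Rh4* (FBgn0003250), from 16852527 to 16862517, and *Rh7* (FBgn0036260), from 12164205 to 12175482. No exon of a rhodopsin gene overlapped an exon of another annotated gene. The intron of *Rh4* holds 3 genes of the opposite strand, *sina*, *sinah* and *CG13029*. The exons of *Rh7* add up to 4014 bases, and those of the other genes to between 1349 and 1588 bases.

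Levels are reads per 1000000 reads assigned to genes (RPM), or log2(RPM + 1) where a log2 scale is named, and a gene counted as expressed from 1 RPM. Reads assigned to genes numbered between 3451331 and 4441952 in cells 1 to 4 and 4913151 in cell D. Intervals in brackets are exact 95% intervals, Poisson for a level and Clopper-Pearson for a share or ratio. Because amplified reads do not stand for separate molecules, these intervals hold counting error and nothing else. For a gene with 0 reads the limit of 3 reads is given, which is at most 0.869 RPM in the 4 kept cells and 0.611 RPM in cell D. With a single condition, no difference between cells was tested.

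Of the 7 rhodopsin genes, 6 were at or above 1 RPM in cell 1, compared with 23.7% of all genes. In cell 2 there were 5, compared with 34.5% of all genes, and in cell 3 there were 4, compared with 17.7%. Cell 4 was the only library with all 7 (35.1% of all genes). In cell D 6 genes passed (40.7% of all genes), with *Rh5* below the threshold at 4 reads. The genes at or above 1 RPM in all 4 kept cells were *ninaE*, *Rh2*, *Rh3* and *Rh4*, that is 4 of 7, against 11.3% of all genes.

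*ninaE* was the highest rhodopsin gene of every library. Its reads numbered 25757, 35126, 4453 and 99623 in cells 1 to 4 and 1492 in cell D. These are levels of 6578, 10178, 1092 and 22428 RPM in cells 1 to 4 and of 304 RPM in cell D. In cell 4 no other gene of the genome had more reads, and *ninaE* stood in places 20, 10 and 153 of cells 1, 2 and 3 and in place 628 of cell D. On the log2 scale the level was 12.64 ± 1.85 (SD, n = 4), and the counting intervals of no pair of the 5 cells overlapped. Among the 1696 genes with a mean of at least 5 over the kept cells, the median SD was 1.37, and 63.6% had an SD no larger than that of *ninaE*.

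*Rh2*, the ocellar rhodopsin, had 5899, 4960, 44 and 659 reads in cells 1 to 4 and 29 in cell D. Its log2 level was 10.56 (10.52 to 10.59), 10.49 (10.45 to 10.53), 3.56 (3.14 to 3.95) and 7.22 (7.11 to 7.33) in cells 1 to 4 and 2.79 (2.31 to 3.24) in cell D. Cells 1 and 2 were thus nearly alike, and both were far above the other libraries. The kept cells spanned a 140-fold range of RPM, the mean was 7.96 ± 3.32 (SD, n = 4), and 86.6% of the genes of at least that minimum mean varied no more.

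**Figure D1:**
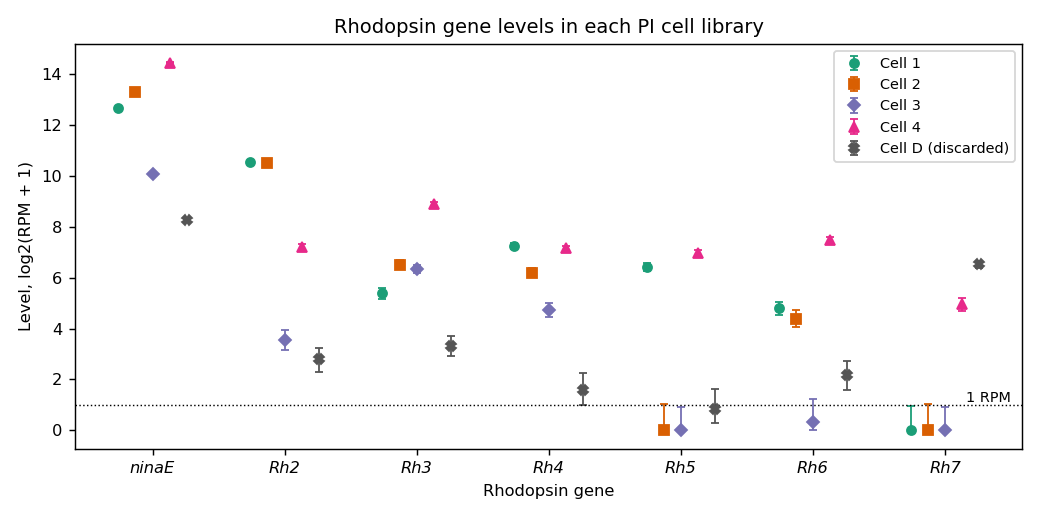
Level of each rhodopsin gene, as log2(RPM + 1), in PI cells 1 to 4 and the discarded cell D; each point is 1 library, bars are exact Poisson 95% intervals of the reads, and the dotted line is 1 RPM. *ninaE* is the highest rhodopsin gene of every library, and *Rh7* has reads in cells 4 and D only.

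The genes of the R7 photoreceptors were found in every library. *Rh3* had 161, 313, 324 and 2113 reads in cells 1 to 4 and 44 reads in cell D, which gave log2 levels of 5.40, 6.52, 6.33 and 8.90 in the kept cells and 3.32 in cell D. Cells 2 and 3 had overlapping intervals, 6.36 to 6.68 and 6.17 to 6.49. *Rh4* had 597, 250, 104 and 628 reads in cells 1 to 4, log2 levels of 7.26, 6.20, 4.73 and 7.15, and 10 reads in cell D, a level of 1.60 (0.98 to 2.25). Cells 1 and 4 overlapped in their intervals of *Rh4*, and MMQuant, a second counter used by the study, kept none of the 104 reads in cell 3. The mean log2 levels were 6.79 ± 1.49 for *Rh3* and 6.34 ± 1.17 for *Rh4* (SD, n = 4 each). By MMQuant they were 6.17 ± 1.57 and 4.89 ± 3.32.

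The genes of the R8 photoreceptors had SDs of 3.87 for *Rh5* and 2.96 for *Rh6* over the kept cells on the log2 scale. *Rh5* had 328 reads in cell 1 and 549 in cell 4, log2 levels of 6.41 (6.25 to 6.56) and 6.96 (6.84 to 7.08), but 0 reads in cells 2 and 3 and 4 in cell D. *Rh6* had 105, 69, 1 and 799 reads in cells 1 to 4, log2 levels of 4.80, 4.39, 0.32 and 7.50, and 17 reads in cell D, a level of 2.16 (1.59 to 2.71). Cell 2 therefore had reads of *Rh6* and none of *Rh5*, while cells 1 and 4 had both.

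*Rh7* was highest in cell D. There it had 450 reads, a log2 level of 6.53 (6.40 to 6.66), and 133 reads in cell 4, a log2 level of 4.95 (4.70 to 5.19). In cells 1, 2 and 3 it had 0 reads, with limits of 0.766, 0.869 and 0.736 RPM. Cell D had the lowest level of *ninaE*, *Rh2* and *Rh3* among the 5 cells and the highest of *Rh7*, and that of *Rh4* was lowest in cell D by STAR and in cell 3 by MMQuant. For *Rh2* the intervals of cell D (2.31 to 3.24) and cell 3 (3.14 to 3.95) overlapped. The circadian blue-light receptor gene *cry*, the other light sensor examined, had 1, 349, 129 and 108 reads in cells 1 to 4 and 58 in cell D, so that cells 2 and 3 had reads of *cry* and none of *Rh7*.

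To compare the genes with each other, reads were divided by exon length. On the scale of log2(RPM per kilobase + 1), the mean levels over the kept cells followed the order *ninaE*, *Rh2*, *Rh3*, *Rh4*, *Rh6*, *Rh5* and *Rh7*. *ninaE* exceeded *Rh2* by 4.45 ± 2.57 (SD of the difference, n = 4) and did so in 4 of 4 cells. *Rh2* exceeded *Rh3* by 1.20 ± 3.96 and in 2 of 4 cells only, and the differences of *Rh3* to *Rh4* (0.40 ± 1.66), *Rh6* to *Rh5* (0.85 ± 2.24) and *Rh5* to *Rh7* (2.25 ± 2.79) were likewise smaller than their SD. *Rh4* exceeded *Rh6* by 2.04 ± 1.81, in 3 of 4 cells, but by MMQuant by 0.90 ± 1.38, in 2 of 4 cells. Since reads gather at the 3' ends, dividing by length may overcorrect.

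Together the 7 genes took 0.839%, 1.18%, 0.121% and 2.35% of the gene reads of cells 1 to 4 and 0.0416% of those of cell D, that is 8389, 11798, 1208 and 23527 RPM in the kept cells and 416 RPM in cell D. *ninaE* made up 78.4%, 86.3%, 90.4% and 95.3% of the rhodopsin reads in cells 1 to 4 and 72.9% in cell D. The second largest share was that of *Rh2* in cells 1 and 2 (18.0% and 12.2%), of *Rh3* in cells 3 and 4 (6.58% and 2.02%) and of *Rh7* in cell D (22.0%). Neither the summed level nor the gene next to *ninaE* was shared by all libraries.

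Marker genes of other cells were measured in the same libraries. Of 8 neuron markers 4, 8, 7 and 8 passed 1 RPM in cells 1 to 4 and 8 in cell D, and they summed to between 256 and 2660 RPM in the kept cells and to 12874 RPM in cell D. The sum of cell 3, the highest of the kept cells, rested on 7744 reads of *fne*, and without this gene (left out after its values were seen) the sums were 180, 659, 760 and 1361 RPM in cells 1 to 4 and 6805 RPM in cell D. Cell 1 had 1 read of *elav* and 0 of *brp*, and cell 3 had 0 of *Syx1A*. MMQuant gave up to 72 reads of a library to *elav* jointly with other genes, and up to 1522 to *Syx1A*. The low counts of these 2 genes may therefore be underestimates. Of 6 PI peptide genes 2, 3, 5 and 3 passed in cells 1 to 4 and 5 in cell D. The list includes *Ilp2*, *Ilp3* and *Ilp5*, insulin-like peptide genes of the insulin-producing cells that were avoided. *Ilp2* had 4, 46, 8179 and 1 reads in cells 1 to 4 and 768 in cell D. *Dh44* had 436, 506, 538167 and 761 reads in cells 1 to 4 and 1871 in cell D. Cell 3 was thus the library with by far the most reads of a PI peptide gene.

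Of 8 fat body markers 7, 7, 4 and 7 passed in cells 1 to 4 and 6 in cell D, with sums of 9870 to 47218 RPM in the kept cells and 1013 RPM in cell D and with *Fbp1* at 0 reads in every library. Of 8 glia markers 5, 7, 4 and 6 passed in cells 1 to 4 and 8 in cell D, with sums of 754 to 5004 RPM in the kept cells and 1976 RPM in cell D and with *repo* at 0 reads in cells 2 and 3. MMQuant gave up to 225 reads of a library to *repo* jointly with other genes, so its counts may be underestimates. Of 8 markers of lens, cone and pigment cells 1, 5, 1 and 6 passed in cells 1 to 4 and 3 in cell D, with sums of 1.47 to 173 RPM in the kept cells and 60.0 RPM in cell D. The sum of 173 RPM was that of cell 1 and rested on 673 reads of *w*. No other marker of this list had more than 2 reads there. Cells 3 and D, which had the least rhodopsin RNA, had the lowest sums of fat body markers. In cells 1, 2 and 4 the fat body sums were 47218, 39517 and 17895 RPM. Among these, cell 4 had the lowest sum but the most rhodopsin RNA. The 7 hemocyte and muscle markers, of which 4, 4, 3 and 5 passed in cells 1 to 4 and 4 in cell D, summed to 95.4 to 577 RPM in the kept cells and 33.2 RPM in cell D. Of all genes, 23.7%, 34.5%, 17.7% and 35.1% passed in cells 1 to 4 and 40.7% in cell D. The counts of lens, cone and pigment cell markers in cells 1, 3 and D (1, 1 and 3 of 8) were near that share, as 1 gene is a large step in so short a list. The part of these markers in the rhodopsin values was not tested.

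Within a library the depth cancels from a ratio of 2 genes, so each rhodopsin gene was also set against *ninaE*. Reads of *Rh2* per 100 reads of *ninaE* were 22.9 (22.3 to 23.6), 14.1 (13.7 to 14.5), 0.988 (0.717 to 1.33) and 0.661 (0.612 to 0.714) in cells 1 to 4 and 1.94 (1.30 to 2.80) in cell D. The ratio therefore differed by 34.6-fold between cells 1 and 4, far beyond counting error, and of the 10 pairs of cells only cells 3 and D overlapped. *Rh3* ran in another order, with 0.625, 0.891, 7.28 and 2.12 reads per 100 of *ninaE* in cells 1 to 4 and 2.95 in cell D, and its highest kept cell was 11.6-fold above its lowest. *Rh4* stood at 2 levels, with 2.32 in cell 1 and 2.34 in cell 3 but 0.712 in cell 2 and 0.630 in cell 4, and 0.670 in cell D. Intervals overlapped within each of these levels and not between them, but the value of cell 3 is 0 by MMQuant.

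*Rh5* was at 1.27 reads per 100 of *ninaE* in cell 1 and 0.551 in cell 4, and at 0.268 in cell D (0.0730 to 0.688). Its limit of 3 reads was 0.00854 in cell 2 and 0.0674 in cell 3. The exact interval of cell 3 reached up to 0.0829 and overlapped that of cell D. *Rh6* was at 0.408, 0.196, 0.0225 and 0.802 in cells 1 to 4 and at 1.14 in cell D (0.662 to 1.83). *Rh7* reached 0.134 in cell 4 (0.112 to 0.158) and 30.2 in cell D (27.1 to 33.5). Per base of exon, each of these ratios would be higher by a constant factor of 1.01 to 1.18, except that of *Rh7*, which would be 0.396 times as large.

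**Figure D2:**
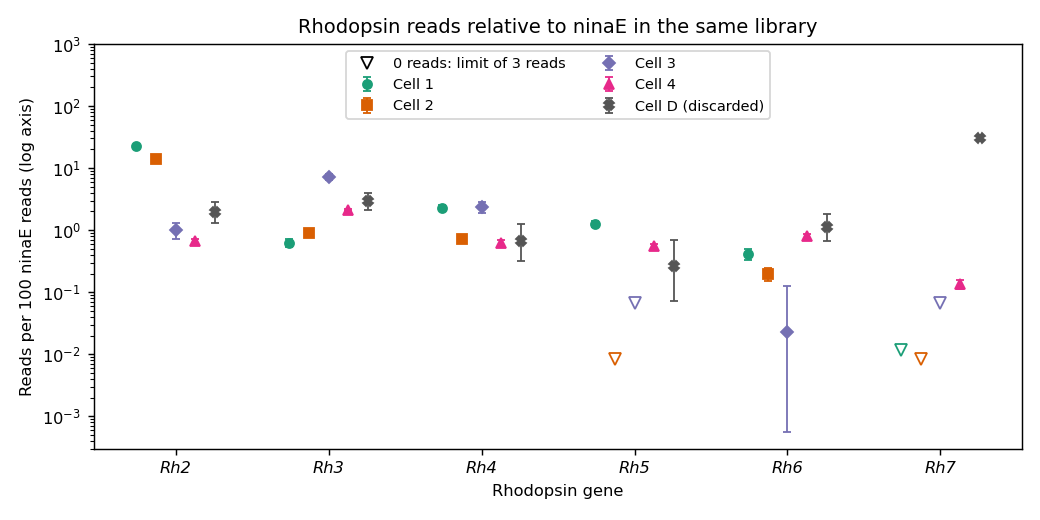
Reads of each rhodopsin gene per 100 *ninaE* reads of the same library, on a log axis, in PI cells 1 to 4 and the discarded cell D; bars are exact 95% intervals and open triangles mark the limit of 3 reads where a gene had 0 reads. *Rh2* stands at 22.9 and 14.1 in cells 1 and 2 and at 0.661 to 1.94 in the other libraries.

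The compound eye rhodopsins were then summed (*ninaE*, *Rh3*, *Rh4*, *Rh5* and *Rh6*) and set against the ocellar rhodopsin *Rh2*. Their reads numbered 26948, 35758, 4882 and 103712 in cells 1 to 4 and 1567 in cell D. Compound eye reads were 4.57 times those of *Rh2* in cell 1 (4.44 to 4.70) and 7.21 times in cell 2 (7.0 to 7.43), but 111 times in cell 3 (82.5 to 153), 157 times in cell 4 (146 to 170) and 54.0 times in cell D (37.5 to 81.0). On the log2(RPM + 1) scale the compound eye sum was higher by 2.19, 2.85, 6.67 and 7.29 in cells 1 to 4 and by 5.53 in cell D, with a mean of 4.75 ± 2.60 (SD, n = 4). It was higher in 4 of 4 kept cells, and an exact two-sided sign-flip permutation test gave p = 0.13, the smallest p that 4 cells allow. Without *ninaE* the direction was not shared by the cells, because the reads of *Rh3* to *Rh6* were 0.202 and 0.127 times those of *Rh2* in cells 1 and 2, and 9.75, 6.20 and 2.59 times in cells 3, 4 and D.

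Among the inner photoreceptors, an R7 cell with *Rh3* mostly sits above an R8 cell with *Rh5*, and an R7 cell with *Rh4* above an R8 cell with *Rh6*. *Rh3* made up 21.2% (18.4% to 24.3%), 55.6% (51.4% to 59.7%), 75.7% (71.4% to 79.7%) and 77.1% (75.5% to 78.7%) of the reads of *Rh3* and *Rh4* in cells 1 to 4 and 81.5% (68.6% to 90.7%) in cell D. Cells 3, 4 and D had overlapping intervals, and cells 1 and 2 lay below them and apart from each other. By MMQuant the share was 220 of 220 reads in cell 3 (98.3% to 100%) against 74.4% in cell 4 (72.6% to 76.1%), so that these did not overlap. *Rh5*, in turn, made up 75.8% (71.4% to 79.7%) of the reads of *Rh5* and *Rh6* in cell 1 and 40.7% (38.1% to 43.4%) in cell 4. In cell 2 it was 0 of 69 reads, with an upper bound of 5.21%, and in cell D 4 of 21 reads (19.0%, 5.45% to 41.9%). Cell 1, where *Rh4* exceeded *Rh3*, was the only library in which *Rh5* exceeded *Rh6*.

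**Figure D3:**
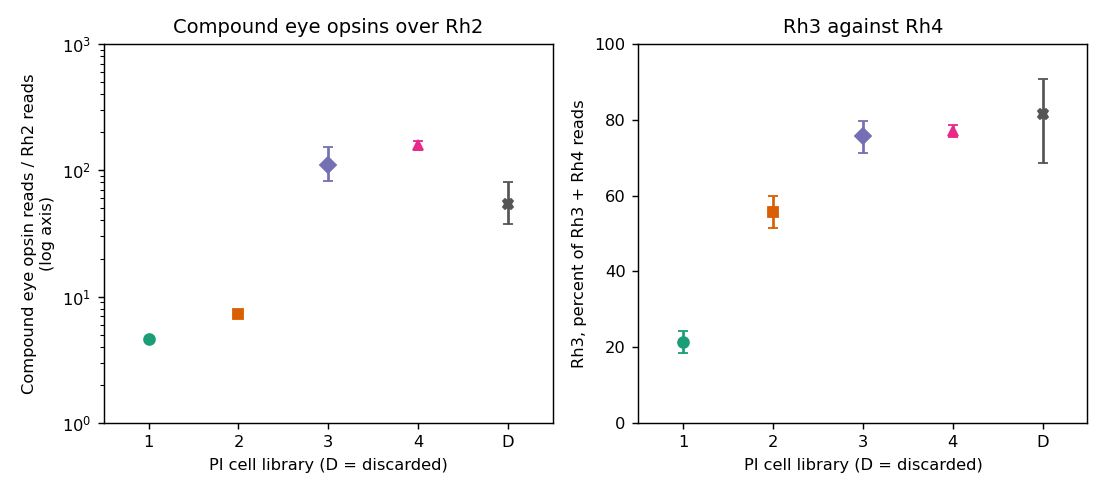
Left, reads of the compound eye rhodopsins divided by reads of *Rh2*, on a log axis; right, *Rh3* as a percentage of the reads of *Rh3* and *Rh4*; each point is 1 PI cell library and bars are exact 95% intervals. Cells 1 and 2 have the 2 lowest values in both plots, at 4.57 and 7.21 on the left and at 21.2% and 55.6% on the right.

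The other genes of phototransduction and of photoreceptors were examined as 4 lists with 52 genes in all. Of these, 31, 39, 22 and 39 were at or above 1 RPM in cells 1 to 4 and 32 in cell D, and 20 (38.5%) were so in all 4 kept cells, against the 11.3% of all genes. Of the 21 genes of the cascade itself 19, 19, 14 and 20 passed in cells 1 to 4 and 18 in cell D. Of the 11 genes of rhodopsin maturation and chromophore supply 6, 8, 3 and 5 passed in cells 1 to 4 and 4 in cell D, and of the 14 of the rhabdomere and of photoreceptor identity 4, 7, 4 and 9 in cells 1 to 4 and 6 in cell D. Of the 6 genes of photoreceptor transmitter use 2, 5, 1 and 5 passed in cells 1 to 4 and 4 in cell D. Cell 3 had the fewest or shared the fewest in every list, but it also had the lowest share of all genes. These counts stand beside 23.7%, 34.5%, 17.7% and 35.1% of all genes in cells 1 to 4 and 40.7% in cell D. In cell D the maturation genes (4 of 11) and the rhabdomere and identity genes (6 of 14) were near that share. The rhabdomere and identity genes of cell 1 (4 of 14) and the transmitter genes of cell 3 (1 of 6) were likewise near the share of their cell. The lists hold genes that other neurons also use, among them the highest of all, *Cam* (calmodulin, log2 level 11.88 ± 0.85) and *Ggamma30A* (a G protein subunit, 11.75 ± 0.94, SD, n = 4 each). Next was *Arr1*, which encodes an arrestin that silences active rhodopsin, at log2 levels of 11.83, 11.53, 7.56 and 13.64 in cells 1 to 4 and 6.79 in cell D. *Arr2*, the other visual arrestin, was at 11.09, 11.19, 8.68 and 12.92 in cells 1 to 4 and 6.92 in cell D. Both arrestin genes were thus highest in cell 4, lower in cells 1 and 2, and lowest in cells 3 and D.

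The channel gene *trp* had 931, 337, 669 and 1548 reads in cells 1 to 4 and 50 in cell D, and *trpl* had 92, 498, 85 and 1611 reads in cells 1 to 4 and 4 in cell D. *inaD*, which encodes the scaffold that holds the cascade together, had 16, 532, 0 and 1347 reads in cells 1 to 4 and 77 in cell D. *chp*, the gene of the photoreceptor surface protein chaoptin, had 640, 414, 12 and 1151 reads in cells 1 to 4 and 26 in cell D. The phospholipase gene *norpA* had log2 levels of 9.68, 9.48, 2.44 and 10.91 in cells 1 to 4 and 9.58 in cell D, so that cell D was close to cells 1 and 2 and cell 3 far below them. A high level in cell D was not particular to *norpA*, as *Galphaq* (8.91) and *rdgB* (9.66) of the cascade list were highest there. *ninaA*, which encodes a chaperone needed for Rh1 to leave the endoplasmic reticulum, had 0 reads in all libraries by STAR, the counter behind all values except those credited to MMQuant. MMQuant, which keeps reads that fall on several genes as a group, gave 22, 80, 2 and 19 reads to groups with *ninaA* in cells 1 to 4 and 0 in cell D. To *ninaA* alone it gave 5 reads in cell 2 and 0 in the other libraries. The chaperone gene *Xport-A* was likewise at 0 by STAR, with 313, 439, 1 and 2522 grouped reads in cells 1 to 4 and 5 in cell D. Of the 52 genes, 8 reached 1 RPM in no kept cell, among them these and *ort*, the gene of a histamine-gated channel of the neurons that photoreceptors contact, which had 0 reads by both counters in all libraries.

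**Figure D4:**
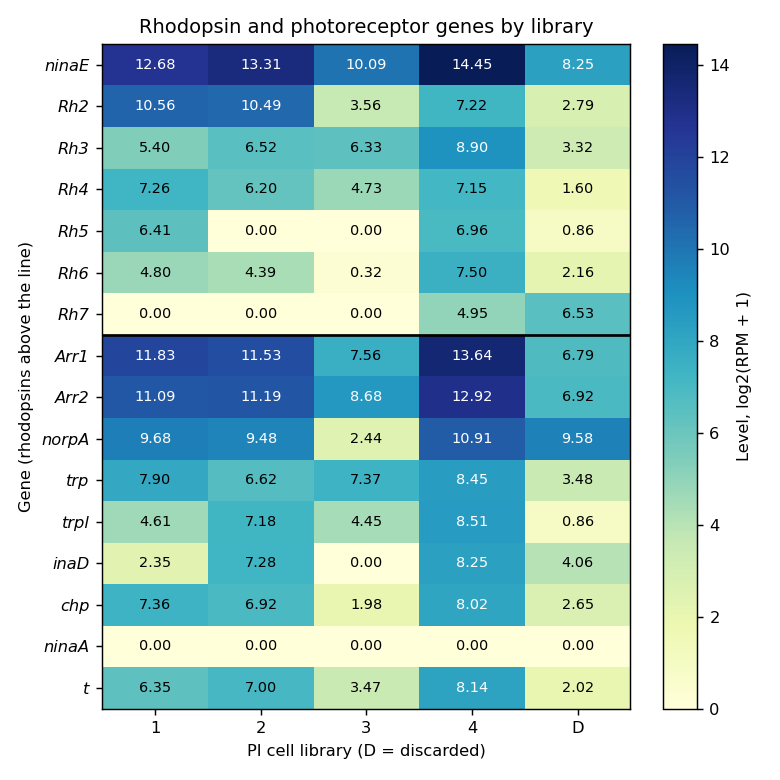
Level, as log2(RPM + 1), of the 7 rhodopsin genes (above the line) and of 9 photoreceptor genes (below it) in PI cells 1 to 4 and the discarded cell D, with the value written in each field. *Arr1* and *Arr2* are highest in cell 4 (13.64 and 12.92) and lowest in cell D (6.79 and 6.92).

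Genes whose pattern over the 5 cells was most like that of *ninaE* were sought by the root mean square difference of log2(RPM + 1) after each gene was centred on its own mean. Among 1783 other genes with a mean of at least 5, the median of this distance was 2.53. The nearest was *t* (*tan*), which encodes the hydrolase that recovers histamine in photoreceptors, at 0.137, followed by *Arr2* at 0.277. Then came *Rab32*, a small GTPase of eye pigment granules, at 0.441, *D2hgdh*, a hydroxyglutarate dehydrogenase, at 0.495, and *Obp99c*, an odorant-binding protein gene, at 0.510. *Rh4* stood in place 24 with 0.825, *Rh3* in place 103 with 1.27 and *Rh2* in place 504 with 2.02, while *Rh5*, *Rh6* and *Rh7* were below the minimum mean.

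Among the 20 phototransduction and photoreceptor genes ranked, the median distance was 2.24, close to the 2.53 of all genes. Yet 6 of the 20 were in the first 100 places, which hold 5.61% of all genes ranked. The rest of these places, and thus most of them, went to genes outside the 4 lists. Among those were *Hex-C* in place 6, *CG2233* in place 9, *Lsd-2* in place 15 and *BomS6* in place 19. Besides *t* and *Arr2*, the 6 listed genes were *Arr1* in place 11, *Pdh* of the chromophore list in place 22, *trpl* in place 35 and *chp* in place 46. Farther off were *trp* in place 129 and *ninaC*, the gene of a photoreceptor myosin, in place 293. *Galphaq*, the G protein subunit gene, stood in place 1162 and *norpA* in place 1170. As these genes were ranked by likeness to *ninaE*, a near constant ratio to it restates the ranking, such as the 0.921 to 1.26 reads of *t* per 100 of *ninaE*. With the minimum mean lowered to 3, the first 5 genes were the same, and with a minimum of 7, 2 of the 5 were kept. That loss was set by the minimum itself, since *t* (5.40), *D2hgdh* (5.83) and *Rab32* (6.68) have means below 7.

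STAR and MMQuant differed more for some rhodopsin genes than for others. MMQuant gave only 4 reads in all to groups that include a rhodopsin gene, and its reads of *ninaE* alone were at least 99.6% of those of STAR in every library. For *Rh3* they were 85.7%, 74.1%, 67.9% and 83.0% of the STAR reads in cells 1 to 4 and 88.6% in cell D. *Rh4* differed more, since MMQuant gave it 589, 229, 0 and 604 reads in cells 1 to 4 and 5 in cell D, against 597, 250, 104 and 628 by STAR in cells 1 to 4 and 10 in cell D. By MMQuant, *Rh4* was therefore below 1 RPM in cells 3 and D, and the rhodopsin genes at or above it in all 4 kept cells were 3.

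The stranded counts of STAR set the same reads apart. Over all genes, 54.4% to 57.1% of the stranded reads of the kept cells and 54.9% of those of cell D lay on the first strand, and for *ninaE* it was 54.5% to 55.6% over the 5 libraries. *Rh3* had 59.1% to 63.9% on that strand in the 5 libraries. The *Rh4* reads of cell 3 were divided into 95 and 9, or 91.3% (84.2% to 96.0%) on the first strand, against 55.3%, 57.2% and 54.0% in cells 1, 2 and 4. The level of *Rh4* in cell 3, and with it the ratio to *ninaE* and the share of *Rh3* there, thus rests on reads that stood apart in both counts. To a lesser extent this held for *Rh3* too. In cell 3 MMQuant kept 67.9% of its STAR reads. On the first strand lay 63.9% (58.4% to 69.1%) of its reads in cell 3 and 62.2% (60.1% to 64.3%) in cell 4.

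**Figure D5:**
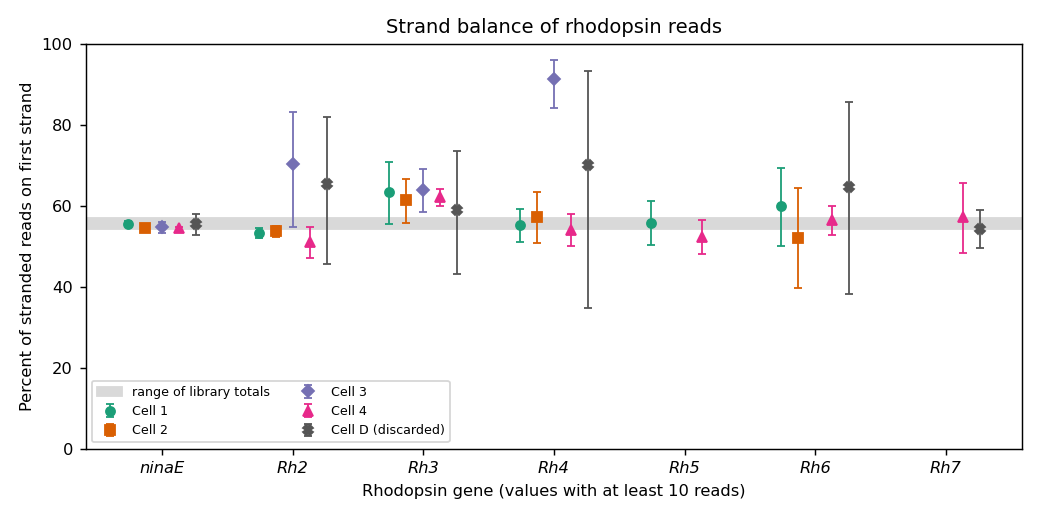
Percentage of stranded STAR reads on the first strand for each rhodopsin gene with at least 10 reads in a library, in PI cells 1 to 4 and the discarded cell D; bars are exact 95% intervals and the grey band is the range of the 5 library totals. *Rh4* in cell 3 lies at 91.3%, outside the band.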

How the data were processed

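Single GFP-labeled PI cells (5 libraries, 4 kept and 1 discarded by the submitters) were analysed as deposited. Per the paper's methods, the authors used Trim Galore and PRINSEQ for trimming and RNA STAR for mapping to dm6 with the BDGP6.87 annotation, and deposited raw counts per gene, both unstranded and by strand. The authors also deposited MMQuant counts per gene or group of genes. Tool versions are not given in the sources used here. The 4 totals of unassigned reads that open each STAR table were left out. RPM used the reads assigned to genes as denominator. Symbols and positions came from Ensembl release 115 (BDGP6.54), which shares the coordinates of dm6.

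The members, the gene lists and the settings were chosen with earlier results of these data known. Named genes were the 7 rhodopsin genes, the 5 genes most like *ninaE*, core members and the 3 highest genes of the pathway lists, *cry*, and markers of the lists. Genes named for a value of 0 were added after their values were seen. Of 53 pathway names, 52 distinct genes were matched, with *otd* a synonym of *oc*. The 5 libraries differed from one another by at least 144 in chi-square per degree of freedom, so none was a copy. Alternatives were the denominator, the strand, MMQuant, depth, the pseudocount of 0.1 RPM, thresholds of 10 RPM, 100 RPM and 1 read, the choice of cells, and, chosen after seeing the data, reads per kilobase. The scripts were tested on simulated data. Python 3.11.15, numpy 2.4.6, pandas 2.3.3, scipy 1.17.1 and matplotlib 3.10.9 were used.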

Additional observations from a re-analysis of the deposited data

Results flagged for a closer look

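The level of *Rh7* and its reads per 100 of *ninaE* each had 1 of the 4 kept cells far from the others, by Dixon's ratio of the gap to the whole range, which was 1 for both and above the 95% critical value for 4 samples. With 3 of 4 values at 0 this ratio is 1 whatever the fourth is, and both sets rest on the same reads. Cell 4 had 133 reads of *Rh7*, and cells 1, 2 and 3 had 0. Of 15 sets of 4 values examined, these were the only 2, and chance gives about 1 in 20. Cell D, with 450 reads, was not part of the sets.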

How the results depend on the processing

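Of 204 values computed under the alternatives, 193 stayed within the spread between cells, or within 1.5 times for a count. Leaving out a kept cell cannot move a mean by more than this spread. For the means without a cell that outcome was therefore fixed in advance and does not speak for their stability. The compound eye sum stayed above *Rh2* under every alternative, but the order of mean levels did not hold: without cell 1 *Rh3* (7.25) was above *Rh2* (7.09), and without cell 2 *Rh5* (4.46) above *Rh6* (4.20). The mean of *Rh4* was 4.89 in both MMQuant counts against 6.34. With a pseudocount of 0.1 RPM the mean of *Rh7* was -1.26 against 1.24, as most cells had 0 reads. With all 5 cells, *Rh7* averaged 6.06 reads per 100 of *ninaE* against 0.0334, owing to cell D. At 10 RPM cell D had 2 rhodopsin genes. At 100 RPM cells 1, 2, 3 and D had 3, 2, 1 and 1, and 1 gene (*ninaE*) passed in all kept cells. Of the genes most like *ninaE*, 2 of the first 5 were kept with a minimum mean of 7, because the means of the others are below it.

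Leaving out each kept cell in turn, the compound eye sum exceeded *Rh2* by 3.90 to 5.60, the rhodopsin genes at 1 RPM in all remaining cells were 4 or 5, and the mean reads of *Rh2* per 100 of *ninaE* were 5.26 without cell 1 and 12.67 without cell 4, against 9.67. Without cell 3, *Rh3* averaged 1.21 against 2.73, without cell 1 *Rh5* 0.184 against 0.456, and without cell 4 *Rh6* 0.209 against 0.357 and *Rh7* 0 against 0.0334. Per kilobase, added after seeing the data, the compound eye sum exceeded *Rh2* by 4.53. No paired analysis was possible between kept and discarded cells, because cell D is a separate cell that the labels pair with no kept cell. Counting error limits *Rh5* in cell D (4 reads), *Rh6* in cell 3 (1 read) and *Rh4* in cell D (10 reads).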

Other observations

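Genes of photoreceptor transmitter use and of the optics of the eye were unevenly spread over the libraries that held rhodopsin reads. *Hdc*, which encodes the enzyme of histamine synthesis, had 0, 179, 0 and 480 reads in cells 1 to 4 and 1 in cell D. *CarT*, a carcinine transporter gene, had 0, 97, 2 and 533 reads in cells 1 to 4 and 9 in cell D. The photoreceptor transcription factor genes *Pph13* and *gl* had 276 and 156 reads in cell 4, 9 and 2 in cell 2, and 0 in cells 1 and 3. *Crys*, the gene of the lens protein drosocrystallin, had 220 reads in cell 2, 222 in cell 4 and 0 elsewhere. Other members of the same lists were present in cell 1, which had 315 reads of *t*, 98 of *e*, 640 of *chp*, 35 of *oc* and 673 of *w*. These genes were picked from the lists after their values were seen, and no test was made.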
